A study of Arabidopsis thaliana with 54 samples.

Results

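A set of 122 genes of the Arabidopsis thaliana hypocotyl, the seedling stem below the cotyledons, stood at least 1 log2 unit (a doubling) above control after 25.5 h of both ethylene and shade. The genes were chosen on group means: ethylene minus control and shade minus control were both at least 1 at 25.5 h, while ethylene minus control at 1.5 h lay between -0.5 and 0.5. Of the 16746 array features that carry exactly 1 gene, 678 (4.05%) met the ethylene condition, 482 (2.88%) the shade condition and 15420 (92.1%) the early condition, 213 (1.27%) met the first and second, and 130 (0.776%) met all 3 together. Members of several wall, detoxification and auxin-responsive families were not considered, which removed 8 features, namely XTH18, XTH19, GH9B5, CSLC04, SCPL34, CYP84A4, PORB and AT2G18010, whose synonym is SAUR10. Of the 122 that remained, 17 have a gene symbol in the annotation used here and 105 have a locus code alone. Those locus codes are used as they stand, with no role given.

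Col-0 seedlings, 1 day old, were kept in airtight glass vessels in short days. Control and ethylene vessels stood in control light, with 140 µmol per square metre and second of photosynthetically active radiation, 29 of blue light and 2.1 times as much red as far-red light, and ethylene was added at 1 µl per litre of air. Shade vessels, without added ethylene, stood under a green filter that left 40 of photosynthetically active radiation and 3 of blue light, and red light at 0.45 of the far-red, so this cue lowered total light, blue light and the red to far-red ratio together. Hypocotyls, and cotyledons with the shoot apical meristem, were separated and measured after 1.5, 13.5 and 25.5 h, and the 13.5 h harvest fell in the dark period. Each of the 18 groups held 3 arrays, collected over 3 independent experiments, and each sample pooled 2 plates of 25 seedlings.

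Ethylene is a gaseous hormone that builds up around enclosed or submerged plants. It is perceived by receptors in the endoplasmic reticulum and acts through EIN3-type transcription factors. Shade is perceived as a loss of red and blue light by phytochromes and cryptochromes, which releases growth-promoting PIF transcription factors. Light-grown hypocotyls elongate under either cue. The hypocotyl grows by expansion of existing cells, which needs a loosened wall, ordered cortical microtubules beneath the plasma membrane, and surface receptors that sense the state of the wall.

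The arrays were similar in scale. The median of an array was 4.15 to 4.55 in log2 units, arrays of the same group correlated at 0.977 to 0.992 over all features, and 0 pairs of arrays held identical values. Roots had been discarded, but 7 arrays had a mean of at least 3.5 over 3 lectin genes of the root marker list. They were control hypocotyl replicates 1 and 3 at 1.5 h, control hypocotyl replicates 1 and 3 at 13.5 h, ethylene hypocotyl replicate 3 at 1.5 h, ethylene hypocotyl replicate 1 at 13.5 h and shade cotyledon replicate 3 at 13.5 h. The mean of the 6 root markers measured in control hypocotyls was 8.74, 4.25 and 8.78 at 1.5 h, 8.86, 4.36 and 7.84 at 13.5 h, and 4.25, 4.55 and 4.24 at 25.5 h. With the 7 arrays left out, the rule gave 105 genes, of which 101 were among the 122. The mean of 4 photosynthetic genes in controls at 13.5 h was 10.72, 10.62 and 10.48 in cotyledons and 10.44, 10.74 and 10.29 in hypocotyls. These overlap, so the photosynthetic genes do not tell the organs apart at that hour. The mean of the 2 stomatal lineage genes measured, MUTE and SPCH, was 6.50 to 8.28 over all cotyledon arrays and 3.46 to 5.41 over all hypocotyl arrays. These 2 genes thus separated the organs as labelled, without overlap. The main counts of member calls that rest on the arrays high in lectins are given with and without them. Of the counts of control levels, only that of controls at least 1 lower at 25.5 h than at 1.5 h was repeated without them. Counts in gene families were not repeated.

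**Figure D1:**
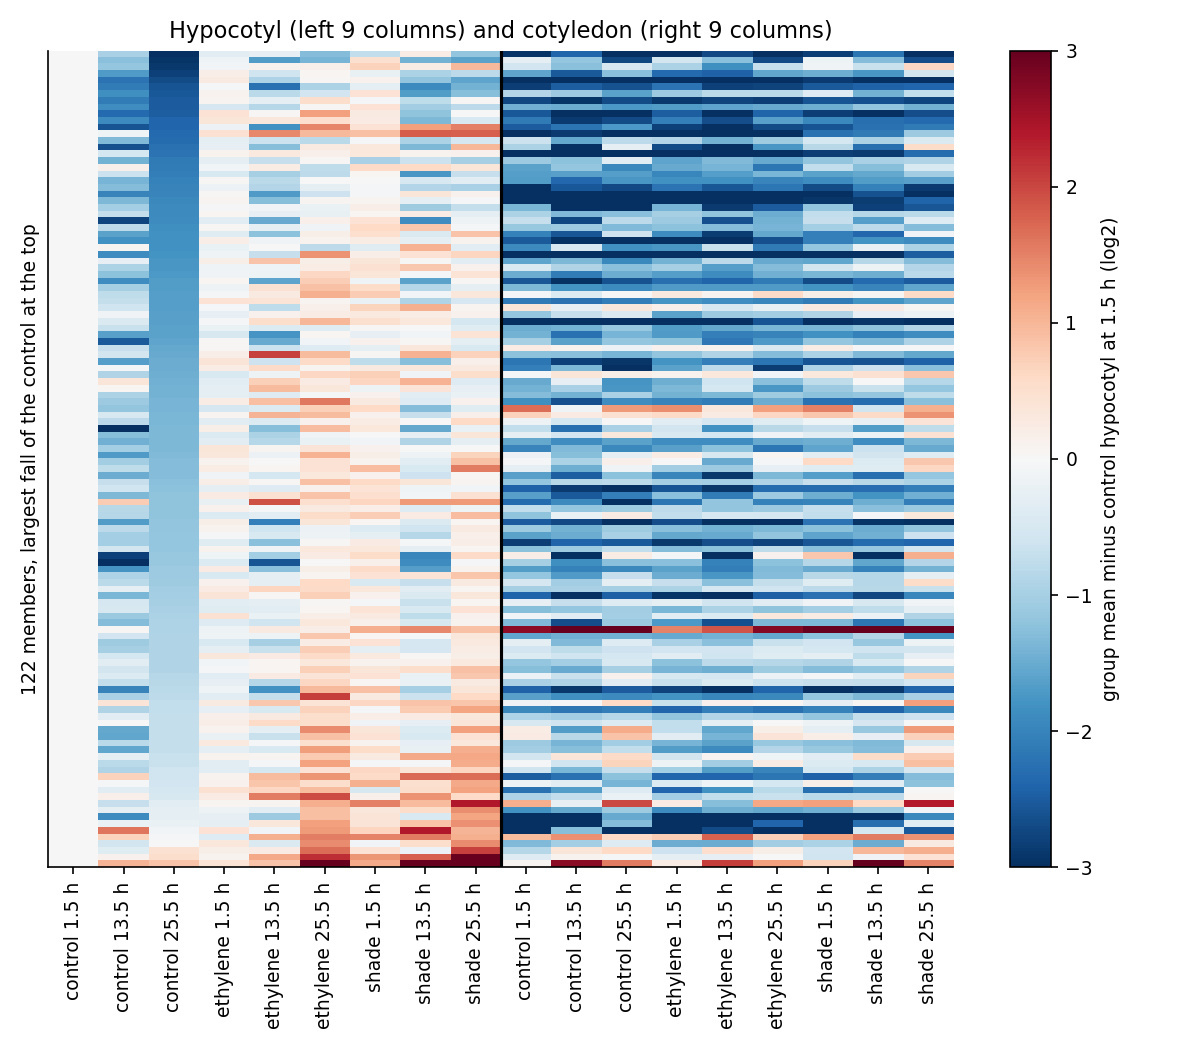
Heat map of the 122 members (rows) in the 18 groups (columns), as the group mean minus the mean of the control hypocotyls at 1.5 h, in log2 units. Colours are capped at -3 and 3. The control hypocotyl column at 25.5 h is blue for 119 of the 122 rows, and the ethylene and shade columns at 25.5 h are mostly pale.

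The values that chose the members are given first, as a description. Over the 122 genes the ethylene difference at 25.5 h ran from 1.00 to 3.84 with a median of 1.68, and the shade difference ran from 1.01 to 4.13 with a median of 1.56. Both differences were taken against the same 3 control arrays. Just inside the limit were AT1G72790, with an ethylene difference of 1.002, AT1G61260 with 1.01 and AT5G48460 with 1.012. Just outside it were AT5G54240 with a shade difference of 0.996 and SUB1 with an ethylene difference of 0.996, and AT3G60450 missed the shade limit by less than the rounding of the values.

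The level that both cues share is the low control at 25.5 h. The median member level in control hypocotyls was 6.91 at 1.5 h, 6.05 at 13.5 h and 5.58 at 25.5 h. In ethylene it was 6.92, 6.75 and 7.35 at the same times, and in shade 7.24, 6.99 and 7.23. The control level at 25.5 h lay below that at 1.5 h for 119 of the 122 members (97.5%, against 60.4% of all features with 1 gene), and at least 1 below it for 82 (67.2%, against 6.86%), and by 13.5 h it lay at least 1 lower for 53 (43.4%, against 6.46%). Without the arrays high in lectins the count of 82 was 87. Choosing genes by a large distance from the 25.5 h control favours genes whose control is low at that time, so these shares are given as a description. Of the 3 exceptions, AT5G61660, AT3G42800 and AT1G65845, 0 had a control that was higher by 1 or more at 25.5 h, as 2.59% of all features with 1 gene did.

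Set against the control at 1.5 h in place of the control at 25.5 h, most members were within 1 of their starting level. A still larger share of all features was, so this is not particular to the members. The ethylene mean at 25.5 h was within 1 of the control mean at 1.5 h for 100 members (82%, against 92.2% of all features with 1 gene), at least 1 above it for 20 (against 1.71%) and below it for 21 (against 62.1%). The shade mean was within 1 for 95 (77.9%, against 90.6%), at least 1 above for 22 (against 2.71%) and below for 36 (against 58.1%). Within a treatment, the ethylene mean at 25.5 h was at least 1 above its own 1.5 h value for 26 members (against 1.55%), and the shade mean for 10 (against 2.25%). Against the control of the same hour, the label of genes raised late was set by the choice, which placed no early limit on shade. Against the first control, with a margin of 1, the label holds for a minority, though for a larger share than of all features. The choice used the treated means at 25.5 h, so these shares are given as a description.

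**Figure D2:**
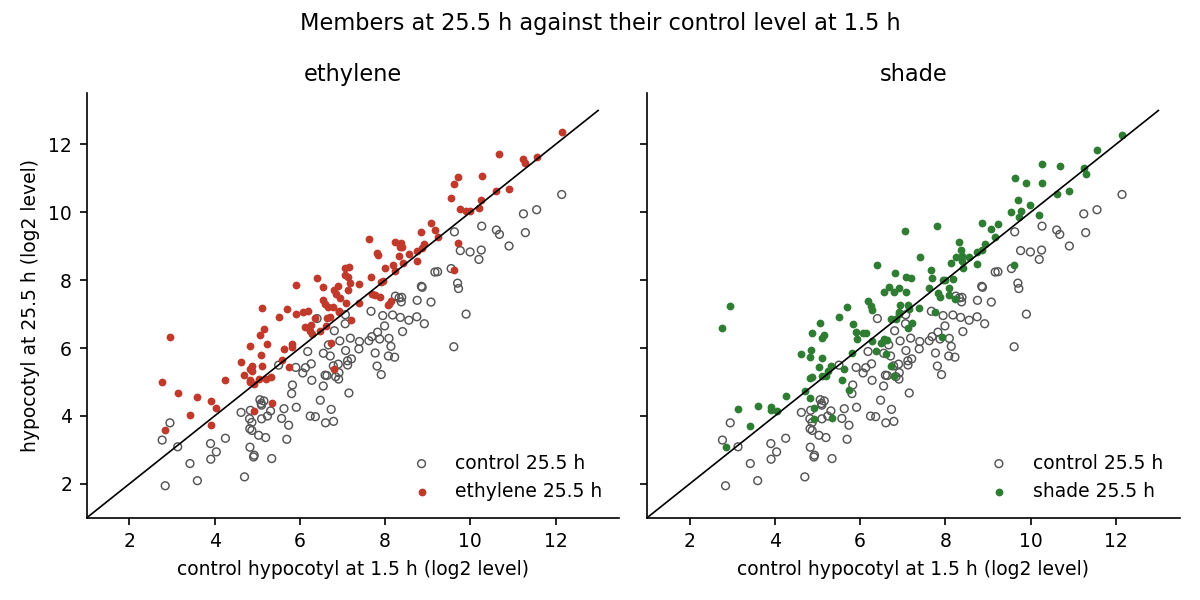
Group mean of each member in hypocotyls at 25.5 h (vertical axis, log2 level) against its mean in control hypocotyls at 1.5 h (horizontal axis, log2 level), for ethylene (left, red) and shade (right, green), with the 25.5 h controls as open circles. The line marks equal levels. The open circles lie below the line for 119 members, and the filled points lie within 1 unit of it for 100 members under ethylene and 95 under shade.

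The ethylene mean at 25.5 h lay above all 3 control means for 98 members (80.3%, against 18.4% of all features with 1 gene), the shade mean for 85 (69.7%, against 21.3%), and both for 79 (64.8%, against 7.4%). With a margin of at least 1 the counts were 17 for ethylene (13.9%, against 0.836%) and 18 for shade (14.8%, against 0.633%). Of all 122 members, 10 (8.2%, against 0.0717% of all features with 1 gene) stood at least 1 above the highest of the 3 control means under both cues. Standing there implies both 25.5 h conditions of the choice, so this contrast with all features was fixed in advance. The other shares in this comparison also use those 25.5 h means and are given as a description. The members named next were picked for their margins, from 25.5 h arrays that took part in the choice. For them and for all members named below, separation of treated from control hypocotyls at 25.5 h is a description. The widest margin was that of AT5G61660. Its control hypocotyls read 3.15, 3.03 and 2.69 at 1.5 h, 3.47, 4.30 and 4.12 at 13.5 h, and 3.71, 3.56 and 4.12 at 25.5 h. At 25.5 h it read 6.36, 6.50 and 6.08 in ethylene and 6.37, 7.96 and 7.36 in shade. All 6 treated arrays thus lay above all 9 control arrays, and the lower of the treated means exceeded the highest control mean by 2.35. For AT3G42800 the controls lay between 2.39 and 3.80 over all 3 times, and the 25.5 h arrays read 5.21, 4.57 and 5.20 in ethylene and 6.82, 6.69 and 6.29 in shade, again without overlap. The margin was 1.70 for AT3G42800, 1.46 for AT5G35525 and 1.41 for AT1G54200. BZIP34, which encodes a bZIP transcription factor, was the only member with a symbol among the 10, with a margin of 1.09.

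At the other end stood members whose control was far lower at 25.5 h than at 1.5 h. For AT5G26260 the control arrays read 9.76, 9.31 and 9.77 at 1.5 h and 6.36, 5.92 and 5.84 at 25.5 h, a difference of 3.57 between the means. The 25.5 h arrays read 8.30, 8.34 and 8.27 in ethylene and 8.75, 8.49 and 8.09 in shade. They lay above the controls of the same hour and below the controls of the first harvest, with no overlap on either side. The control difference was 2.95 for BGLU15, a beta-glucosidase gene, 2.90 for BZIP61 and 2.81 for AT3G13600. Both cues left 16 members below their 1.5 h control mean at 25.5 h (13.1%, against 45.9% of all features with 1 gene).

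The 13.5 h controls, on arrays that took no part in choosing the members, were set against the 1.5 h controls, which did through the early condition. This comparison was added after the control levels had been seen. Because the 13.5 h harvest fell in the dark period, a decline with time and a difference by hour of the day cannot be told apart in it. In control hypocotyls 90 of the 122 members were lower at 13.5 h than at 1.5 h and 5 were higher, at an adjusted p below 0.05 in limma, where 20.7% and 10.5% of all 17504 tested features were called. The median change was -0.90 for the members and -0.10 for all features. With the 7 arrays left out, and so with 1 control array at each of those times, 65 members were called lower. The 2 root hair markers measured had means of 7.45, 7.11 and 5.63 at 1.5 h and 4.60, 3.08 and 4.67 at 13.5 h, and their part in the result was not tested. SWEET11, a sugar exporter gene used as the phloem marker, read 8.05 to 8.29 in these controls at 1.5 h and 10.54 to 11.36 at 13.5 h. SWEET11 was thus higher at 13.5 h without overlap, in the direction opposite to most members. FDH, used as the epidermis marker, was also higher, at 7.10 to 7.80 in these controls at 1.5 h and 9.19 to 9.55 at 13.5 h. The part of SWEET11 and FDH was not tested either. In bulk tissue, fewer cells of a type and less RNA per cell cannot be told apart.

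In control cotyledons the members went in both directions. Between 1.5 and 25.5 h in control cotyledons, 24 members rose and 12 fell (7.08% and 9.93% of all features), and the median change was 0.01. Between 1.5 and 13.5 h, 10 rose and 36 fell (9.48% and 8.96%). The difference between the organs in this course was not tested.

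**Figure D3:**
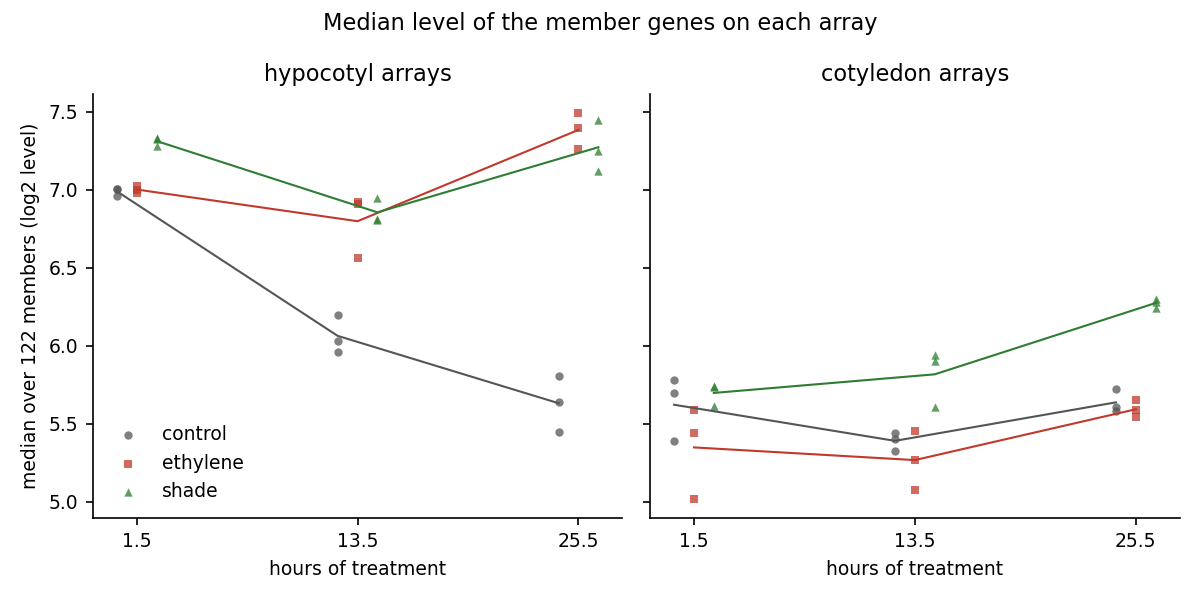
Median level over the 122 members on each array (points, log2 level) and the mean of the 3 arrays of a group (lines), against hours of treatment, for hypocotyls (left) and cotyledons (right). Control hypocotyl medians are lower at each later time while ethylene and shade hypocotyls are near the starting level, and in cotyledons the shade arrays lie highest at 25.5 h.

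The 13.5 h arrays also tested whether the difference between treated and control hypocotyls, by which the members were chosen at 25.5 h, was present in the preceding night. Under ethylene 65 of the 122 members were higher than control and 1 was lower, where 6% of all features were called higher and 6.04% lower. The changes ran from -1.69 to 2.60, with a median of 0.67 for the members and 0.00 for all features. Under shade 75 members were higher and 1 was lower, where 6.1% and 4.7% of all features were called, and the changes ran from -1.10 to 3.84 with a median of 0.81 against -0.02. Both comparisons share the same 3 control arrays. With 1 control array, after those high in lectins were left out, 57 and 60 members were called higher. A fit on the 6 arrays compared alone called 33 and 30. The mean of the 4 photosynthetic genes, PRK, LHB1B2, RCA and LHCB4.1, was 10.44, 10.74 and 10.29 in these controls, 9.46, 9.65 and 9.30 in ethylene and 10.23, 10.47 and 10.09 in shade. This marker level was lower in ethylene than in control without overlap. The phloem marker SWEET11 read 10.54 to 11.36 in these controls, 8.74 to 10.10 in ethylene and 9.13 to 9.83 in shade, lower under both cues without overlap, with changes of -1.50 ± 0.20 and -1.59 ± 0.20 (adjusted p of 6.3e-07 and 3.7e-07 in limma). The epidermis marker FDH read 9.19 to 9.55 in these controls, 10.75 to 11.36 in ethylene and 9.06 to 10.75 in shade. It was higher in ethylene without overlap, by 1.764 ± 0.285 (adjusted p = 1.4e-05 in limma). Its shade change of 0.367 ± 0.285 did not pass the test. The part of these markers in the member changes was not tested.

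The 8 members with the largest difference under both cues at 25.5 h, taken by the smaller of the pair, were AT5G35525, AT2G19660, BZIP61, AT5G12940, AT5G66580, AT5G61660, AT2G24300 and AT2G14900. Their differences ran from 2.44 to 4.13, and under at least 1 cue every one of them was also called higher at 13.5 h. AT2G19660 read 7.97, 7.54 and 7.52 in control, 9.16, 9.25 and 9.35 in ethylene and 9.71, 9.51 and 9.66 in shade at 13.5 h, without overlap between treated and control arrays, and rose by 1.57 ± 0.27 and 1.94 ± 0.27 (adjusted p of 3.3e-05 and 1.4e-06 in limma). AT5G12940 rose by 1.83 ± 0.23 and 1.34 ± 0.23 from controls of 3.04, 2.03 and 2.72, and its shade call was not made in a fit on the 6 arrays compared alone (0.0515). AT5G66580 rose by 1.37 ± 0.22 and 1.28 ± 0.22. AT2G14900 rose by 2.33 ± 0.29 under shade, and its ethylene change of 1.20 ± 0.29 was not called without the arrays high in lectins (0.0695).

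The largest ethylene changes at 13.5 h were those of AT5G63820, AT2G24300, AT4G24275 and AT2G34300. AT5G63820 read 2.77, 3.61 and 2.78 in control, 5.41, 5.58 and 5.99 in ethylene and 4.90, 4.58 and 4.45 in shade. No treated array overlapped a control array, and the change was 2.60 ± 0.23 (SE) under ethylene and 1.59 ± 0.23 under shade, with adjusted p of 5.0e-11 and 4.3e-06 in limma. AT2G24300 rose by 2.36 ± 0.29 under ethylene, from controls of 5.20, 3.74 and 5.56 to 6.96, 7.26 and 7.37. Its shade change of 1.10 ± 0.29 was called, with an adjusted p of 0.00847 in limma, but the call was lost without control replicate 2, with an adjusted p of 0.229, or without shade replicate 3, with 0.055, and was not made in a fit on the 6 arrays compared alone (0.295). AT4G24275 rose by 2.26 ± 0.21 under ethylene, and its shade value of 0.57 ± 0.21 did not pass the test. For AT2G34300 the ethylene change was 2.00 ± 0.20.

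The largest shade changes at that hour belonged to other members. AT5G35525 read 3.28, 2.64 and 3.36 in control, 7.12, 6.85 and 6.82 in shade and 3.95, 3.91 and 3.75 in ethylene. The shade arrays lay far above both other groups, with a change of 3.84 ± 0.32 (adjusted p = 2.4e-11 in limma), and the ethylene change of 0.77 ± 0.32 did not pass the test. By 25.5 h the same gene read 7.40, 7.15 and 6.92 in ethylene and 6.93, 7.46 and 7.20 in shade, against 3.35, 3.85 and 2.74 in control, so the treated groups overlapped each other and not the control. AT5G61660 was higher by 3.26 ± 0.32 under shade at 13.5 h, with arrays of 7.58, 7.64 and 6.46, while ethylene arrays read 4.19, 3.76 and 3.45 and controls 3.47, 4.30 and 4.12. The changes of AT4G29020 and AT1G12080 under shade were 2.55 ± 0.21 and 2.35 ± 0.26.

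Shade and ethylene arrays were set against each other at 13.5 h without use of the controls. Of the 122 members, 30 were higher in shade and 16 were higher in ethylene (8.21% and 6.53% of all features, 14.7% in either direction), and the median difference was 0.04. Without the arrays high in lectins 48 members differed in place of these 46. The largest excess of shade was 3.42 ± 0.32 for AT5G61660, followed by 3.06 ± 0.32 for AT5G35525, with adjusted p of 4.9e-11 and 9.2e-10 in limma. Among members with a symbol, BZIP34, RALFL22, SKU5, TET10, TRM26 and BGLU16 were higher in shade, and HMT-1 and DRT100 were higher in ethylene. The other 76 members did not pass this test, which does not show that the cues acted alike on them.

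**Figure D4:**
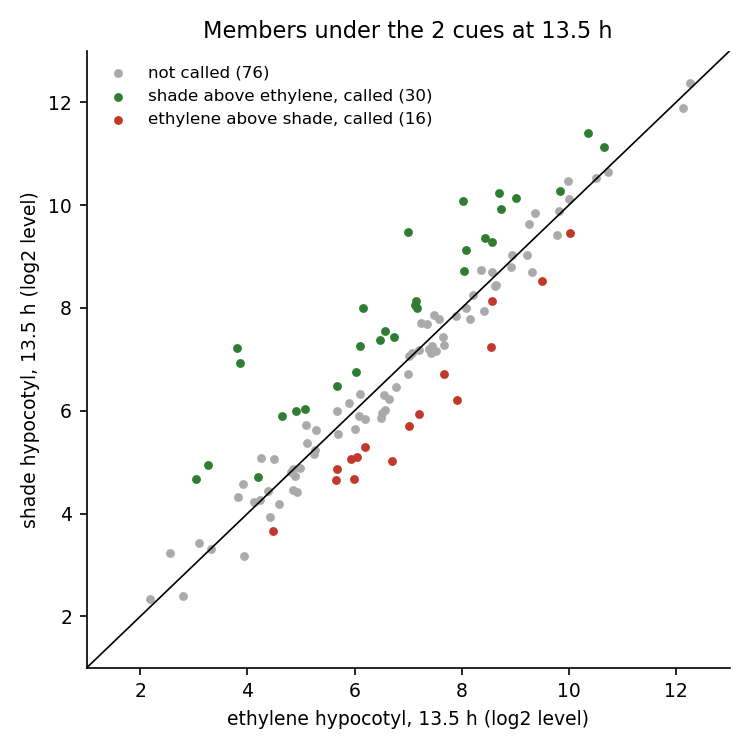
Group mean of each member in shade hypocotyls (vertical axis) against ethylene hypocotyls (horizontal axis) at 13.5 h, both as log2 levels from 3 arrays, with equal levels on the line. Green points are the 30 members called higher in shade, red points the 16 called higher in ethylene, and grey points the 76 called neither way.

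The sole members called lower under a cue in that night were AT1G30280 and AT2G02630, named after their values were seen. AT1G30280 read 8.78, 8.84 and 8.42 in control, 7.45, 6.93 and 6.59 in ethylene and 9.53, 9.48 and 9.41 in shade at 13.5 h. The 3 groups did not overlap, with a change of -1.69 ± 0.21 under ethylene and 0.79 ± 0.21 under shade (adjusted p of 8.9e-08 and 0.00823 in limma). At 25.5 h the same gene read 8.48, 8.40 and 8.18 in ethylene against 7.20, 7.13 and 6.62 in control. The choice set ethylene above control at that hour for every member, so only the opposite order in the night was tested. AT2G02630 was lower under shade by 1.10, at levels of 2.64, 2.85 and 4.05 against 4.92, 3.90 and 4.01, and the groups overlapped.

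At 1.5 h fewer members were called under shade than later. The choice used the controls of that hour, so this test is only partly independent of it. Of the 122 members 20 were higher and 2 lower in shade (1.96% and 10.5% of all features), with a median change of 0.26 against -0.12 for all features. This count depended on single arrays. It was between 8 and 13 when any 1 of the 6 arrays compared was left out, 5 without the arrays high in lectins, and it was 51 after centring each array on its median. BZIP34 stood out among the members with a symbol. It read 6.60, 7.47 and 7.13 in control at that hour and 8.56, 8.61 and 8.52 in shade, without overlap, a change of 1.50 ± 0.25 (adjusted p = 5.5e-05 in limma).

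In their roles, the 17 members with a symbol fall into transcription factors, cell-surface and signalling proteins, cytoskeletal proteins, and enzymes. Both transcription factors are bZIP proteins, which bind DNA as dimers through a basic region and a leucine zipper. In control hypocotyls BZIP61 read 9.73, 9.82 and 10.15 at 1.5 h, 8.91, 8.20 and 9.12 at 13.5 h and 6.97, 7.10 and 6.94 at 25.5 h, so the 3 control times did not overlap. In ethylene it read 9.90, 9.92 and 10.34 at 25.5 h and in shade 10.83, 11.03 and 10.77, which makes differences of 3.05 and 3.87 from the control of that hour. At 13.5 h its changes were 1.26 ± 0.21 under ethylene and 1.38 ± 0.21 under shade, with adjusted p of 3.1e-05 and 1.1e-05 in limma.

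BZIP34 followed another course. Its control arrays read 6.60, 7.47 and 7.13 at 1.5 h and 6.51, 7.05 and 6.60 at 25.5 h, with overlap. Shade arrays read 9.39, 9.89 and 9.09 and ethylene arrays 8.10, 8.16 and 8.20 at 25.5 h, so both cues lay above every control array. At 13.5 h the shade change was 1.62 ± 0.25 (adjusted p = 8.1e-06 in limma). The ethylene change of 0.77 ± 0.25 was called with an adjusted p of 0.0308 in limma, and the call was lost without any 1 of control replicates 1 and 3 and ethylene replicates 2 and 3, with adjusted p of 0.0599 to 0.222, or without the arrays high in lectins (0.0704). Shade exceeded ethylene by 0.85 ± 0.25 at that hour. Of 7 bZIP genes measured under such symbols, a family list added after the data were seen, the remaining 5, BZIP17, BZIP24, BZIP28, BZIP53 and BZIP60, had changes between -0.14 and 0.43 at 13.5 h under either cue and did not pass the test. At 25.5 h BZIP53 changed by 0.74 ± 0.13 under ethylene and 1.28 ± 0.13 under shade (adjusted p of 1.7e-05 and 3.7e-10 in limma). BZIP24 changed by -0.89 ± 0.22 under ethylene at that hour (adjusted p = 0.00176 in limma).

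The cell-surface members include a peptide and a receptor. RALFL22 encodes a peptide of the RALF family, small secreted peptides that alter extracellular pH and growth, and FER encodes FERONIA, a receptor kinase that perceives RALF peptides and senses the wall. The control hypocotyls of RALFL22 read 7.03, 7.18 and 6.53 at 1.5 h and 5.04, 5.05 and 5.17 at 25.5 h. At 25.5 h it read 7.29, 6.94 and 7.06 in ethylene and 8.10, 7.90 and 7.30 in shade, above the controls of that hour and level with or above those of the first. In the night it read 5.52, 5.36 and 5.03 in control and 6.43, 6.64 and 6.35 in shade, a rise of 1.17 ± 0.20 (adjusted p = 5.5e-05 in limma), whereas the ethylene change of 0.38 ± 0.20 did not pass the test. Shade exceeded ethylene by 0.79 ± 0.20 (adjusted p = 0.00402 in limma). Of 18 RALF-like genes measured, a family added after the data were seen, RALFL22 was the sole member of the set. At 13.5 h 2 of the 18 rose under ethylene (RALFL18 and RALFL34) and 4 under shade (RALFL22, RALFL24, RALFL31 and RALFL34), where 6% and 6.1% of all features did, with 0 of the 18 lower under either cue in limma.

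FER had smaller differences than RALFL22 at 25.5 h, 1.21 under ethylene and 1.18 under shade. In control hypocotyls it read 9.76, 9.85 and 9.69 at 1.5 h, 9.57, 9.33 and 9.43 at 13.5 h and 8.58, 9.15 and 8.89 at 25.5 h. In ethylene it read 10.01, 10.26 and 9.98 at 25.5 h and in shade 9.84, 10.24 and 10.08. The treated arrays of the last harvest lay above all controls of that hour and near those of the first. At 13.5 h the shade change of 0.44 ± 0.13 was called with an adjusted p of 0.0201 in limma, which rose to between 0.0527 and 0.135 without any 1 of 4 arrays (control replicates 2 and 3, shade replicates 1 and 2) and to 0.0623 without the arrays high in lectins. The ethylene change of 0.37 ± 0.13 did not pass the test, with an adjusted p of 0.0508.

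SKU5, a surface-anchored protein related to multicopper oxidases that affects directional growth, read 8.73, 8.81 and 9.12 in control hypocotyls at 25.5 h, 10.31, 10.43 and 10.39 in ethylene and 10.66, 11.02 and 10.90 in shade, with no overlap among the 3 groups. At 13.5 h it rose by 0.79 ± 0.14 under shade (adjusted p = 5.2e-05 in limma), and its ethylene change was 0.37 ± 0.14, which did not pass. TET10, a tetraspanin of the membrane, rose by 1.02 ± 0.16 under shade at 13.5 h and its ethylene change of 0.34 ± 0.16 did not pass. For ACA.l, which the annotation lists among autoinhibited calcium pumps, the shade change was 0.69 ± 0.21 with an adjusted p of 0.0294 in limma, and the call was lost without control replicate 2 or 3 or shade replicate 1 or 2, or without the arrays high in lectins (0.212). ARLA1B, related to ADP-ribosylation factors of membrane traffic, was dim, with controls of 2.86, 3.64 and 3.53 at 25.5 h, and passed no test at 13.5 h in hypocotyls.

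Cytoskeletal members were TUB1 and TUB5, which encode beta chains of tubulin, IQD19, a calmodulin-binding protein of a family linked to microtubules, TRM26, of a family that recruits TON1 to cortical microtubules, and NET2D, of a family that binds actin. The control hypocotyls of TUB1 read 7.92, 8.01 and 7.80 at 1.5 h and 5.45, 4.35 and 5.86 at 25.5 h. At 25.5 h ethylene arrays read 7.95, 8.07 and 7.84, level with the first controls, and shade arrays 5.93, 6.55 and 6.48, above the controls of that hour and below those of the first. At 13.5 h its changes were 1.31 ± 0.30 under ethylene and 1.04 ± 0.30 under shade. Both calls were lost without control replicate 2, which read 4.80 beside 5.74 and 6.52, with an adjusted p of 0.0576 under ethylene and 0.279 under shade in limma. The shade call was also lost without shade replicate 1 (0.0596) or shade replicate 3 (0.0539).

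TUB5 read 6.50, 7.01 and 7.39 in control, 7.98, 7.98 and 8.28 in ethylene and 8.11, 8.03 and 7.84 in shade at 13.5 h. No treated array overlapped a control, and the changes were 1.12 ± 0.20 and 1.02 ± 0.20 (adjusted p of 5.0e-05 and 2.4e-04 in limma). IQD19 read 6.95, 6.84 and 7.25 in control, 8.11, 8.28 and 8.82 in ethylene and 8.08, 7.80 and 7.95 in shade at that hour. Its changes were 1.39 ± 0.19 and 0.93 ± 0.19, with adjusted p of 7.5e-07 and 6.2e-04 in limma. The remaining tubulins, a family added after the data were seen, were TUB6, TUB7, TUB9 and TUA6. Of all 6 tubulins 4 rose under ethylene and 5 under shade at 13.5 h, with 0 lower, where 6% and 6.1% of all features rose. The members TUB1 and TUB5, for which the family was added, are counted in both. The others that rose were TUB6 and TUB9 under ethylene, and TUB6, TUB9 and TUA6 under shade. TUB6, which is no member, rose by 0.93 ± 0.12 and 1.08 ± 0.12. Calls in other families of members, also added after the data were seen, went both ways at 13.5 h. Under ethylene 3 of 14 IQ-domain genes were higher and 2 lower, and 2 of 14 TRM genes higher and 4 lower. The counts were 0 and 1 of 9 NET genes, 0 and 3 of 22 beta-glucosidases and 0 and 0 of 12 tetraspanins. Under shade they were 5 and 2, 4 and 2, 1 and 0, 1 and 2, and 2 and 1, in the same order. Of all features 6.04% were lower under ethylene and 4.7% under shade. In the fit on the 6 arrays compared alone, the shade calls of BZIP61 (0.0502), SKU5 (0.113), TET10 (0.0927), TUB5 (0.0791), TRM26 (0.11), FER (0.202), TUB1 (0.25) and ACA.l (0.0587) and the ethylene calls of BZIP34 (0.207) and TUB1 (0.21) were not made, with the adjusted p of limma in brackets.

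TRM26 separated the cues at 13.5 h. It read 6.56, 6.87 and 6.20 in control, 6.30, 6.54 and 6.56 in ethylene and 7.58, 7.46 and 7.08 in shade. Shade lay above both other groups, by 0.82 ± 0.20 over control and 0.90 ± 0.20 over ethylene, with adjusted p of 0.00453 and 0.00111 in limma. The first of these calls was lost without control replicate 3 (0.0551) or without the arrays high in lectins (0.248). NET2D, with controls of 4.92, 4.08 and 4.34 at 13.5 h, had changes of 0.41 ± 0.38 and 0.42 ± 0.38, which did not pass.

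**Figure D5:**
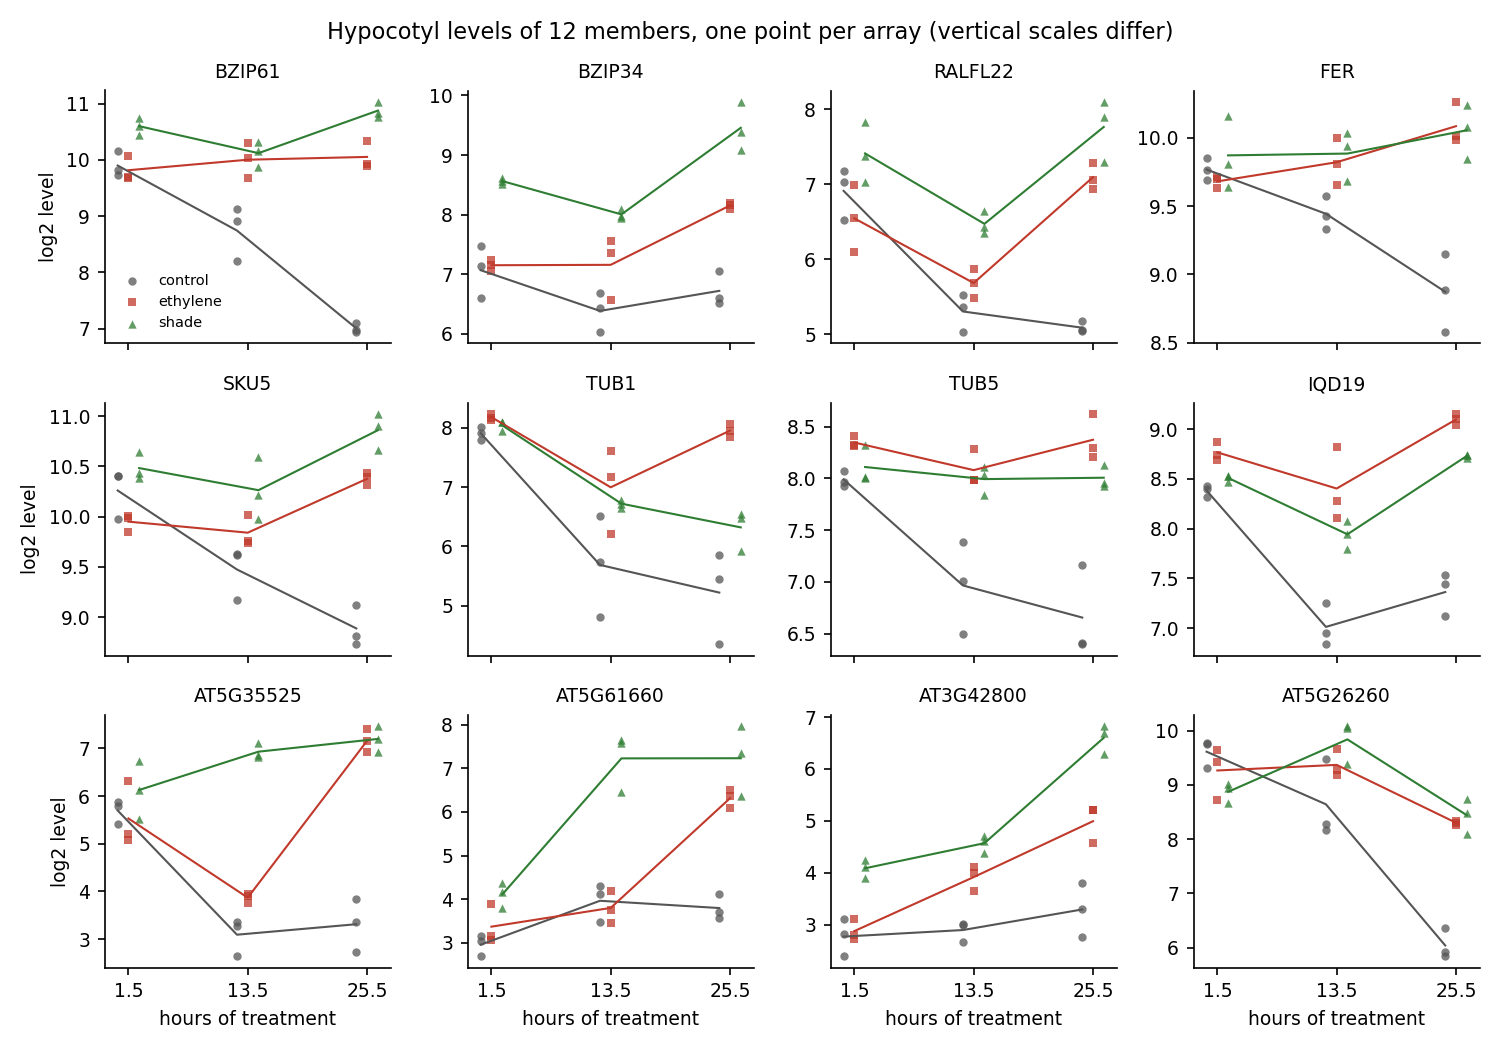
Hypocotyl levels of 12 members, with 1 point per array and lines through group means, against hours of treatment. Vertical axes are log2 levels and differ between panels. At 25.5 h AT5G26260 shows treated arrays below the first controls and above the controls of that hour, AT5G61660 and AT3G42800 show treated arrays above all controls, and AT5G35525 and AT5G61660 are high in shade and not in ethylene at 13.5 h.

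Among the enzymes and the remaining members, DRT100, named for DNA damage repair and toleration, had the lowest adjusted p for ethylene at 13.5 h of those with a symbol. It read 8.18, 8.01 and 8.43 in control, 9.68, 9.99 and 10.37 in ethylene and 9.56, 9.49 and 9.33 in shade at 13.5 h. The changes were 1.80 ± 0.16 and 1.25 ± 0.16, with adjusted p of 5.0e-11 and 4.1e-07 in limma. HMT-1, a homocysteine methyltransferase, read 5.85, 5.11 and 5.70 in control, 6.42, 7.13 and 7.49 in ethylene and 5.62, 5.41 and 6.07 in shade at that hour. It rose by 1.46 ± 0.24 under ethylene, and its shade change of 0.15 ± 0.24 did not pass the test. Ethylene exceeded shade by 1.31 ± 0.24 (adjusted p = 5.9e-05 in limma), and by 25.5 h HMT-1 read 7.53, 7.47 and 7.29 in ethylene, 5.86, 6.32 and 6.66 in shade and 5.27, 4.62 and 4.76 in control.

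Both remaining members with a symbol encode beta-glucosidases, enzymes that release glucose from conjugates. BGLU16 read 8.10, 8.28 and 8.13 in control, 8.01, 8.11 and 8.12 in ethylene and 9.12, 9.38 and 8.90 in shade at 13.5 h, a rise of 0.96 ± 0.22 under shade (adjusted p = 0.00162 in limma), which was not called without the arrays high in lectins (0.0688). BGLU15 read 5.96, 4.71 and 5.96 in control, 5.33, 5.28 and 4.73 in ethylene and 5.28, 5.19 and 5.65 in shade, with overlap and no call. Its 25.5 h controls of 2.84, 4.79 and 3.89 also overlapped with the shade arrays of 5.01, 4.79 and 5.74 at the shared value of 4.79.

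The cotyledon arrays, which took no part in the choice, asked whether the members responded in that organ too. Under ethylene few members passed. At 1.5 h 0 members were higher and 3 lower in limma (0.531% and 0.474% of all features), and at an unadjusted p below 0.05 the numbers were 4 and 21. At 13.5 h 0 were higher and 4 lower (0.948% and 0.663%), or 14 and 16 unadjusted. At 25.5 h 8 were higher and 13 lower (2.84% and 2.36%), with a median change of -0.12. Under shade 3 members were higher at 1.5 h (0.206%), 20 at 13.5 h (2.05%) and 33 at 25.5 h (4.91%), with medians of 0.13, 0.30 and 0.36. At each time 0 were lower in limma, where 0.32%, 2.5% and 3.9% of all features were, and at an unadjusted p below 0.05 the numbers lower were 2, 1 and 1. The count at 13.5 h was 8 to 12 without control replicate 1 or 2 or shade replicate 1 or 2, 3 in a fit on the arrays compared alone and 21 without the arrays high in lectins. The count at 25.5 h was 19 in the former fit. Without ethylene replicate 3 the ethylene count of 8 at 25.5 h was 4. A direct test between shade and ethylene in cotyledons was not made.

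The members that ethylene changed most in cotyledons at 25.5 h went in both directions. AT1G76240 read 5.06, 4.37 and 4.59 in control and 1.98, 2.14 and 2.22 in ethylene, without overlap, a fall of 2.56 ± 0.25 (adjusted p = 9.5e-10 in limma). In hypocotyls at the same hour it read 7.33, 6.97 and 6.96 in ethylene and 6.28, 5.70 and 5.72 in control. That order is the opposite one, and the choice set it for every member. AT5G66580 fell by 1.45 ± 0.22 in ethylene cotyledons, from 5.68, 5.86 and 6.29 to 4.57, 4.42 and 4.49. AT1G60060 rose by 1.33 ± 0.22. AT1G48330 also had a change of 1.33 ± 0.39, called with an adjusted p of 0.0353 in limma, and that call was lost without any 1 of 5 of the 6 arrays (all but control replicate 3), with adjusted p of 0.053 to 0.239.

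Under shade the largest cotyledon changes at 25.5 h were rises. AT2G19660 read 4.72, 4.06 and 4.28 in control and 6.35, 6.92 and 6.88 in shade, a change of 2.36 ± 0.27 (adjusted p = 4.1e-08 in limma). In hypocotyls this gene was also among the most changed, at 5.24, 5.20 and 5.97 in control, 8.82, 8.88 and 8.68 in ethylene and 9.25, 9.87 and 9.67 in shade. AT1G25230 rose by 2.01 ± 0.18 in shade cotyledons, AT2G14900 by 1.89 ± 0.29 and AT5G06930 by 1.64 ± 0.17. Of the members with a symbol, BZIP61, FER, TRM26, DRT100, BGLU16 and ACA.l rose in shade cotyledons at 25.5 h, by 1.14 ± 0.21, 0.47 ± 0.13, 0.96 ± 0.20, 0.61 ± 0.16, 0.87 ± 0.22 and 0.92 ± 0.21. In ethylene cotyledons BZIP34 and RALFL22 fell at that hour, by 0.83 ± 0.25 and 0.92 ± 0.20, and DRT100 rose by 0.98 ± 0.16.

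The difference between the organs was itself tested at 13.5 h, the hour that the choice did not use. The ethylene change was larger in hypocotyl than in cotyledon for 32 of the 122 members and smaller for 0 (1.75% and 1.38% of all features), and at an unadjusted p below 0.05 the numbers were 65 and 0. The shade change was larger in hypocotyl for 19 and smaller for 0 (2.13% and 1.79%), or 50 and 2 unadjusted. A fit on the arrays compared alone gave 15 for ethylene and 4 for shade, and without the arrays high in lectins the counts were 39 and 21. The median difference between the organs was 0.60 for ethylene and 0.49 for shade. With a symbol and called for ethylene were BZIP61 at 1.83 ± 0.30, BZIP34 at 1.81 ± 0.35, HMT-1 at 1.38 ± 0.34, DRT100 at 1.37 ± 0.23, IQD19 at 1.19 ± 0.27 and TUB5 at 1.02 ± 0.28. For shade RALFL22 was called, at 0.94 ± 0.28 with an adjusted p of 0.0489 in limma. In control seedlings at 13.5 h, 65 members were higher in hypocotyl than in cotyledon and 14 were lower (15.6% and 14.8% of all features, 30.5% in either direction), and the median difference in level was 0.60. Without the arrays high in lectins 64 members differed in place of these 79.

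Lists of related genes were short. The brassinosteroid, growth-promoting bHLH, cutin and wax, and other pathway lists held 0 to 4 measured genes each, matched by symbol alone, and 0 members. In hypocotyls at 13.5 h EXO, FDH and WAG2 of these lists changed by 2.02, 1.76 and 2.52 under ethylene. Under shade the values were -1.16, 0.37 (not called) and 1.50. At 25.5 h they were 1.72, 3.00 and 3.83 under ethylene and 2.50, 1.12 and 0.80 (not called) under shade. PIF7 changed by -1.42 under ethylene at 25.5 h. BRL1, LCR, SHN2, SHN3 and SLY1 had no call in limma at either hour. On the chromosomes, 3 pairs of members were direct neighbours among measured genes, namely AT1G12070 and AT1G12080 on chromosome 1, and AT5G61560 with AT5G61570 and AT5G66580 with AT5G66590 on chromosome 5, out of 149 neighbouring pairs that hold a member. Neighbours did not always go together. At 13.5 h AT1G12070 was higher in ethylene than in shade and AT1G12080 was higher in shade than in ethylene.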

How the data were processed

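RNA was measured on 54 Affymetrix Arabidopsis Gene 1.1 ST arrays, 3 in each of 18 groups. Per the submitters' processing notes, the authors made the deposited log2 values in Affymetrix Expression Console 1.4 by RMA, and Transcriptome Analysis Console 3.0 is named too. RMA corrects background, equalizes distributions between arrays and summarizes probes, so a shift shared by most genes would be lost. The sources used here name no build and do not say if arrays were normalized jointly. Of 38408 features, 16746 carry 1 gene, 758 several and 20904 none in the platform annotation. Symbols were updated through the TAIR10.1 gene table, and all 122 members matched. That table holds no gene descriptions, so the members without a symbol were not grouped by function, and promoter sequences were not used here.

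The main fit was made with limma (3.58.1, R 4.3.3) on all 54 arrays with a mean per group, so groups share an estimate of spread (prior degrees of freedom 4.67). P-values were two-sided and adjusted by the Benjamini-Hochberg method over the 17504 features with a gene, and called below 0.05. A ± value of a change is its standard error. Member differences between treated and control hypocotyls at 25.5 h, and between ethylene and control at 1.5 h, were used by the choice and are given without a test. Tests that use the same 1.5 h controls (shade at 1.5 h and the decline of the controls) are only partly independent of it. The number of arrays limits the precision.

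Members and lists were chosen with earlier results of these data known. Genes were named by a rule. It takes the 8 members with the largest smaller-of-both difference at 25.5 h, and the 4 largest called changes per cue at 13.5 h in hypocotyl, at 25.5 h in cotyledon and between organs. It adds the 4 largest control declines, the 4 farthest above all controls, all 17 with a symbol, and 3 on each side of the threshold. Same-numbered arrays deviated together, with correlations above 0.1 in every pair, for shade and control hypocotyls at 13.5 h (0.105, 0.199 and 0.109) and for control hypocotyls at 13.5 and 1.5 h (0.257, 0.462 and 0.271). Ethylene and control hypocotyls at 13.5 h came close to this, at 0.218, 0.247 and 0.099. The labels do not say which experiment a number stands for. Alternatives were quantile normalization, median centring, a fit on the arrays compared alone, the replicate number as a block, another threshold and leaving out arrays.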

Additional observations from a re-analysis of the deposited data

Results flagged for a closer look

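The following results were singled out because the response to a cue differed between the organs, by a test of the difference itself at 13.5 h. For ethylene 32 members responded more in hypocotyl than in cotyledon. The largest differences were 2.39 for AT3G07010, 2.26 for AT2G24300, 2.26 for AT5G63820 and 2.04 for AT4G24275. AT3G07010 read 6.73, 6.83 and 7.20 in control and 8.21, 8.80 and 8.89 in ethylene hypocotyls, and 5.96, 5.96 and 5.41 in control and 4.85, 5.39 and 5.07 in ethylene cotyledons, so the groups parted in opposite directions. The control cotyledons of AT5G63820 read 2.42, 2.46 and 2.18. For AT2G24300 the difference was not called in a fit on the arrays compared alone, with an adjusted p of 0.0709 in limma.

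For shade 19 members responded more in hypocotyl. The largest differences were 3.89 for AT5G35525, 2.36 for AT5G61660, 2.26 for AT4G29020 and 1.93 for AT4G14380. AT5G35525 read 3.25, 3.73 and 3.53 in control cotyledons and 3.49, 3.55 and 3.31 in shade cotyledons, which overlap. AT5G61660 read 5.47, 5.64 and 5.86 in control cotyledons and 6.43, 6.59 and 6.65 in shade cotyledons, without overlap. For AT4G14380 the difference was not called without the arrays high in lectins, with an adjusted p of 0.212 in limma, or on the arrays compared alone, with 0.114. Of the arrays behind these tests, control hypocotyl replicates 1 and 3, ethylene hypocotyl replicate 1 and shade cotyledon replicate 3 were high in lectins.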

How the results depend on the processing

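A fit on the arrays compared alone, which has fewer arrays to estimate the spread, called 33 members higher under ethylene and 30 under shade in hypocotyls at 13.5 h, 12 under shade at 1.5 h, 1, 3 and 19 under shade in cotyledons at 1.5, 13.5 and 25.5 h, and 15 and 4 with a larger hypocotyl response to ethylene and to shade. Median centring gave 51 under shade in hypocotyls at 1.5 h. Without the arrays high in lectins, an alternative chosen after seeing the data, that count was 5, and 1 member was called higher under ethylene in cotyledons at 13.5 h. Raising the limit at 25.5 h to 1.5 left 46 members. Quantile normalization gave 120 members (114 shared) and median centring 141 (119 shared). Leaving out 1 array at a time gave 48 to 68 members higher under ethylene and 61 to 73 under shade in hypocotyls at 13.5 h, 8 to 13 under shade at 1.5 h, 0 to 3 and 4 to 8 under ethylene in cotyledons at 13.5 and 25.5 h, 1 to 3, 8 to 16 and 24 to 33 under shade in cotyledons at 1.5, 13.5 and 25.5 h, 22 to 38 and 14 to 23 for the organ differences, 39 to 48 between the cues, 67 to 76 between control organs, 77 to 87 for the early control decline, 80 to 87 members with a control lower by 1 or more at 25.5 h, and 116 to 136 members. The lowest cotyledon counts came without ethylene replicate 3 at 25.5 h (4), shade replicate 2 or 3 at 1.5 h (1) and control replicate 2 at 13.5 h (8). With control replicate 1, shade replicate 1 or shade replicate 2 left out, the last count was 12, 11 and 11, and ethylene in cotyledons at 13.5 h gave 3 without control replicate 3 and 1 without ethylene replicate 3. With the replicate number as a block, ethylene gave 68 and shade 78 members in hypocotyls at 13.5 h and the early control decline 91, and the block moved no count of calls by over 1.5 times. Of 102 results for single genes, 0 reversed, and of 1476 repeats 77 lost a call and 22 gained one. The cause of these changes was not tested.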
